A study of Homo sapiens with 18 samples.

Results

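The clustered protocadherins are cell-surface cadherins encoded by 3 gene clusters that lie side by side on the long arm of chromosome 5. Genes were taken as members by their symbols (PCDHA, PCDHAC, PCDHB, PCDHGA, PCDHGB or PCDHGC with a number, no pseudogene), which gave 53 of the 42141 genes measured: 15 alpha, 16 beta and 22 gamma (12 gamma A, 7 gamma B and 3 gamma C). In GENCODE 29 they run from 140786136 to 141512981 on chromosome 5 of hg38, all on the plus strand. The set as a whole was selected on measured values, the expression differences between JNKKO and WT cells in these same libraries. Differences between the genotypes are therefore given as a description, and only the responses to treatment are read as tests.

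RNA was sequenced from acini, small epithelial spheres, grown from MCF-10A.B2. This line derives from the immortal but non-tumorigenic breast epithelial cells MCF-10A and has a chimeric HER2 receptor. The B/B homodimerizer pairs this receptor and so switches its kinase on. All cells grew in growth factor reduced matrigel for 21 days, with EGF for the first 7 and, in its place, ethanol or the treatment for the last 14. The 6 groups of 3 libraries were WT cells with ethanol (WT control), WT with the homodimerizer (WT dimerizer), WT with homodimerizer and the cytokine TGF-β1 (WT dimerizer with TGF-β1), and JNK knockout (JNKKO) cells under the same 3 treatments. Every group carried the receptor. The labels do not say which JNK gene or exon was deleted, whether JNKKO is 1 clone, or whether the 3 libraries of a group come from separate cultures. The p-values therefore reflect the spread among these libraries alone, and that spread may be technical.

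Each alpha and each gamma gene has its own promoter and a large first exon that encodes the outside of the protein, and this exon is spliced to a set of 3′ exons shared by the whole cluster. Beta genes lack such shared exons. The proteins bind identical copies on neighbouring cells, and in neurons, where each cell uses a small set of them, they label single cells so that branches of one cell avoid each other. The 5 members named with a C (PCDHAC1, PCDHAC2, PCDHGC3, PCDHGC4 and PCDHGC5) form a separate type whose use in neurons is less random than that of the other, alternate members.

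Most alternate promoters carry a conserved sequence element with the letters CGCT at its core, near which the insulator protein CTCF binds. RefSeq promoter windows (GRCh38.p14, 250 bases before to 50 after the gene start) were matched for 47 of the 53 members, and 60 bases around the CGCT are shown for members that carry the results below, 5′ to 3′ on the plus strand with CGCT in capitals, so that the similarity within a cluster can be seen.
PCDHA6, chr5:140827885-140827944: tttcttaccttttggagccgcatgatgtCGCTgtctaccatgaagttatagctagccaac
PCDHA12, chr5:140875232-140875291: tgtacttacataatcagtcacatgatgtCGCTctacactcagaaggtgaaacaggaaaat
PCDHAC1, chr5:140926208-140926267: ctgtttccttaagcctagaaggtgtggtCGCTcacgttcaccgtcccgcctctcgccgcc
PCDHB2, chr5:141094532-141094591: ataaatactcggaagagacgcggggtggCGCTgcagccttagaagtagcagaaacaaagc
PCDHB9, chr5:141187062-141187121: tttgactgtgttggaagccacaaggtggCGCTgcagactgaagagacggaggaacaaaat
PCDHB10, chr5:141192287-141192346: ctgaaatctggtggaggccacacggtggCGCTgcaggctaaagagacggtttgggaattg
PCDHB14, chr5:141223251-141223310: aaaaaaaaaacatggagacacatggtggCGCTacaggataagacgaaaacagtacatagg
PCDHB16, chr5:141182298-141182357: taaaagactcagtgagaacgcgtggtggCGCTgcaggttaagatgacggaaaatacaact
PCDHGA4, chr5:141354948-141355007: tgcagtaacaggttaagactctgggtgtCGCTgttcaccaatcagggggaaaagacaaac
PCDHGA10, chr5:141412919-141412978: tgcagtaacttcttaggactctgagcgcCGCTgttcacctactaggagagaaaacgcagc
PCDHGC3, chr5:141475868-141475927: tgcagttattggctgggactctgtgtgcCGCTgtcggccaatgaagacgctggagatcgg
The word CATGATGTCGCT stood in 8 of 13 alpha windows and in 8 (0.0229%) of all 34935 promoter windows of this length. GGTGGCGCTGCA stood in 10 of 14 beta windows and 15 (0.0429%) of all, and GCGCCGCTGT in 9 of 20 gamma windows and 46 (0.132%) of all. Both strands were searched, each word contains CGCT (so the searches overlap), and each is the word with CGCT, of 12 letters for alpha and beta and 10 for gamma, that most windows of its cluster hold. CGCT alone stood in 69.9% of all windows. PCDHB14, the most abundant beta member, differs from the beta word, as do PCDHAC1, PCDHGA4 and PCDHGC3 from the words of their clusters, and the CGCT shown for these is the one nearest to its usual place.

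Library totals ran from 24243537 to 34499651 expected counts, of which the members together took 4814 to 8916. Basal mammary markers summed to 5134 to 10380 TPM (transcripts per 1000000) and all 8 were present. Of 12 neuronal markers, 6 stayed under 0.1 TPM in every library, SNAP25, ELAVL3 and ELAVL4 among them. MAPK9, which encodes JNK2, lay at 57.1 to 68.3 CPM (counts per 1000000, TMM-scaled) in WT and 42 to 53.9 in JNKKO, and MAPK8, which encodes JNK1, overlapped (22.7 to 35.1 and 25.5 to 34.8). A small edit can leave RNA in place, so these levels do not check the genotype labels. For replicate 3 of WT dimerizer with TGF-β1, the title and the genotype tag disagree, and the title was followed. Reads shared between members limit every value below. Of the 100-base windows in a member's annotated transcripts, a median of 46.1% in alpha, 43.1% in gamma and 5.97% in beta also occur in another member. Of the members' deposited counts, 75.4% were not whole numbers (71.5% in alpha, 77.8% in beta and 76.3% in gamma). Among all genes with a count in any library this share was 14.3%. Antisense transcripts overlap the locus and the use of strand is not given in the sources used here.

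A handful of members made most of the protocadherin RNA in these acini. By mean TPM over the 18 libraries, a level per transcript length, PCDHGC3 led with 17.3 (10.1 to 30.5), followed by PCDHB14 with 12.4, PCDHA12 with 7.36 and PCDHAC1 with 6.38. These 4 made 56.9% of the summed TPM of all 53, and with PCDHB2, PCDHB10 and PCDHAC2 they made 70.01%. The 4 were the only members with a mean of at least 5 TPM, 11 others lay between 1 and 5, and 38 lay under 1 TPM, 9 of these under 0.1. PCDHGC3 held 73.3% ± 0.149 (SD, n = 3) of gamma TPM in WT dimerizer with TGF-β1 and 57.9% ± 1.94 in WT dimerizer, its lowest group. PCDHB14 held between 34% and 46.4% of beta TPM over the 18 libraries. The other 2 gamma C members were scarce, PCDHGC4 at 0.208 TPM and PCDHGC5 at 0.864. The filter on low counts was passed by 49 members (13 alpha, 15 beta, 21 gamma). PCDHA2, PCDHA3, PCDHB1 and PCDHGA3 failed it, with highest values of 0.904, 0.473, 0.0706 and 0.168 CPM. Members that passed through a group in which they are high were bound to differ, so counts below describe the 49 and are read against all genes only.

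**Figure D1:**
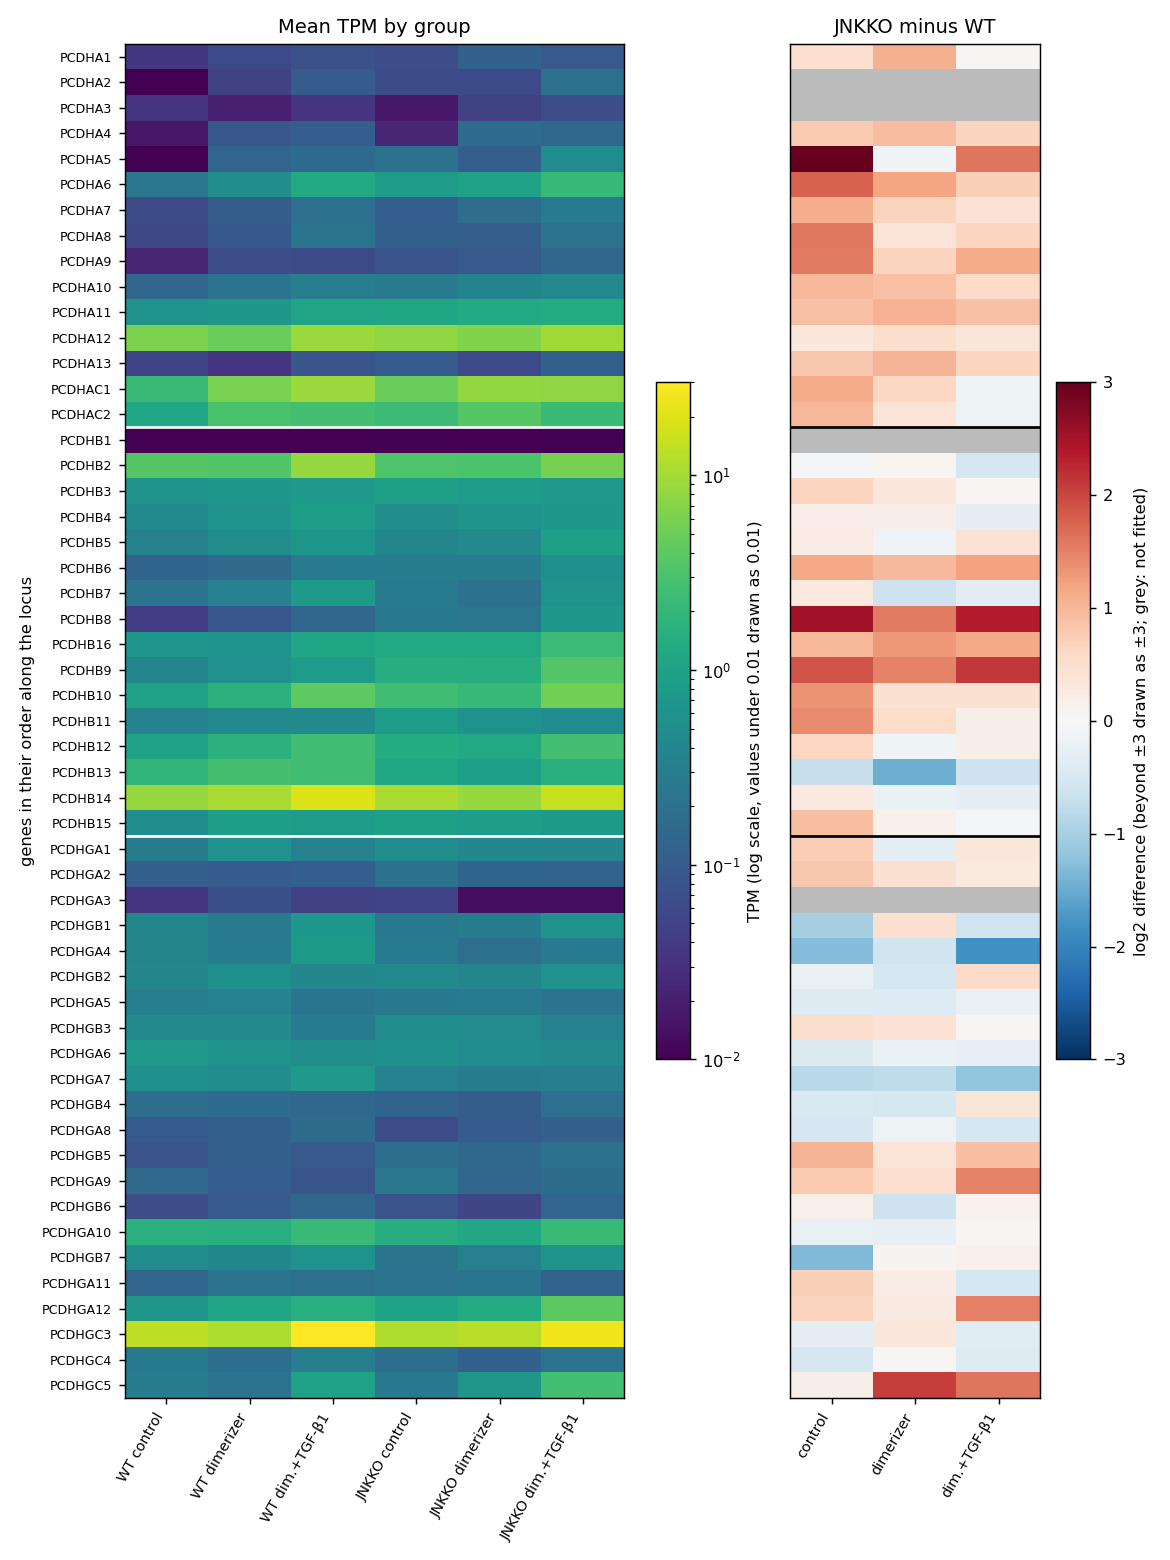
Rows are the 53 protocadherins in their order along the locus and lines divide alpha, beta and gamma. The left panel gives the mean TPM of the 3 libraries of each group on a log colour scale, and the right panel the fitted log2 difference JNKKO minus WT in each treatment, with the 4 members that were not fitted in grey. PCDHGC3, PCDHB14, PCDHA12 and PCDHAC1 are the brightest rows, and red rows run through alpha and the beta stretch from PCDHB8 to PCDHB10.

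Between the genotypes, as a description of the values the set was selected on, more alpha members had a fitted difference above 0 (higher in JNKKO) than below it in each treatment, and gamma members lay on both sides. In control acini, 35 of 49 members had a fitted log2 difference above 0 (among all 16911 genes 50.8%), with dimerizer 33 (all genes 50.6%) and with dimerizer and TGF-β1 32 (all genes 49.5%). By cluster, these were 13, 12 and 11 of 13 alpha members under control, dimerizer and dimerizer with TGF-β1, 13, 10 and 9 of 15 beta members, and 9, 11 and 12 of 21 gamma members. Both C-type alpha genes lay below 0 with TGF-β1, PCDHAC1 at -0.12 and PCDHAC2 at -0.16. The median log2 difference of the 49 was 0.65, 0.33 and 0.18 in the 3 treatments, beside 0.01, 0.00 and 0.00 over all genes. Summed alpha expression was 36.5, 37.3 and 37.2 CPM in WT control and 63.7, 60.8 and 63 in JNKKO control. The groups did not overlap, a log2 difference of 0.76, and this difference was 0.59 with dimerizer and 0.22 with dimerizer and TGF-β1. In summed TPM the last of these was 0.043, with overlapping groups (25.2, 24.7 and 24 TPM in WT and 26.2, 24.1 and 25.8 in JNKKO). Summed beta expression differed by 0.41 in control, where the groups did not overlap, and by -0.02 and 0.03 in the other 2 treatments, where they did.

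**Figure D2:**
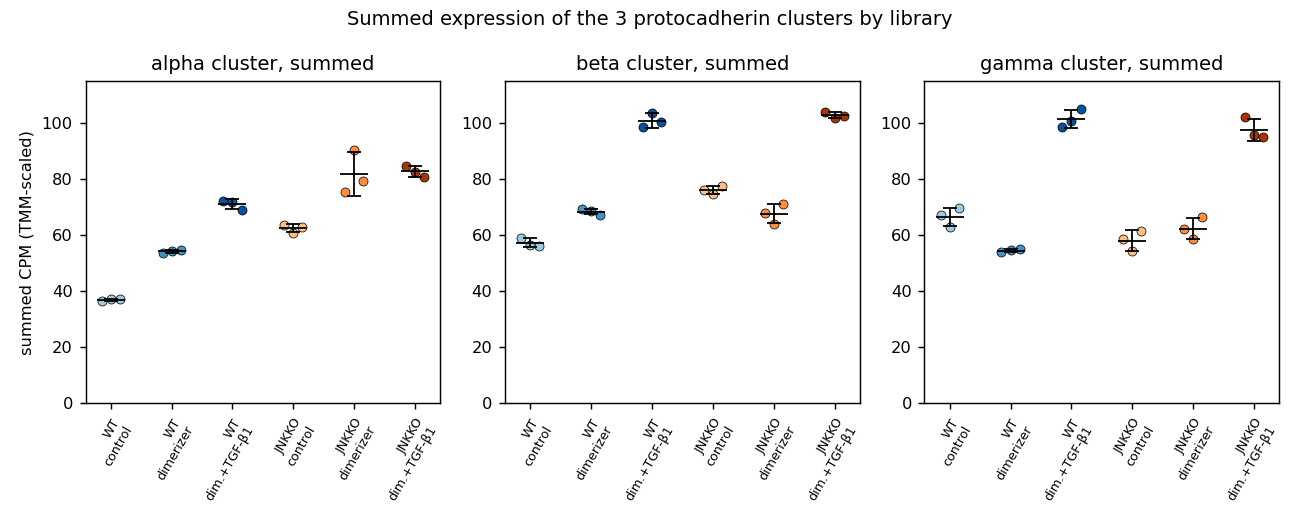
Summed TMM-scaled CPM of the 15 alpha, 16 beta and 22 gamma genes in each of the 18 libraries (points) by group, with the mean and SD of 3 libraries (bars). Alpha sums are higher in all 3 JNKKO control libraries than in the WT control libraries, and beta and gamma sums are highest in both groups that received TGF-β1.

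By CPM, PCDHB8, PCDHB16 and PCDHB9, 3 beta genes that lie next to each other in this order, were higher in each of the 9 JNKKO libraries than in any of the 9 WT libraries. PCDHB9 spanned 1.14 to 2.76 CPM in WT and 4.36 to 10.9 in JNKKO, and PCDHB16 from 1.62 to 4.13 and 4.73 to 9.40. PCDHB8 was scarce, 0.0689 to 0.277 CPM in WT and 0.395 to 1.30 in JNKKO. Of the alpha members, PCDHA11 was separated the same way (1.42 to 2.45 and 2.68 to 4.83 CPM). A single beta gene went the other way: PCDHB13 lay at 6.86 to 11 CPM in WT and at 3.43 to 5.94 in JNKKO. In all, 4 of 49 members lay above and 1 below in all 9 by CPM, beside 0.786% and 0.798% of all genes. In TPM only PCDHB8 and PCDHB9 of these stayed apart. PCDHA11 reached 1.14 TPM in WT and began at 1.03 in JNKKO, and PCDHB16 reached 1.28 and began at 1.22. PCDHB13 began at 1.74 TPM in WT and reached 1.79 in JNKKO. These genes share sequence with others of the cluster. Of the 100-base windows of PCDHB8, 20.2% also occur in PCDHB13, and of those of PCDHB9, 10.7% occur in PCDHB10. Of the windows of PCDHB13, a far more abundant gene than PCDHB8, 10.8% occur in PCDHB8. These percentages set no bound on the error of a scarce gene, and how far shared reads affect the values was not tested.

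The mean log2 difference over the 3 treatments was largest for PCDHB8 (2.15), PCDHB9, PCDHGC5 and PCDHA6 and smallest for PCDHGA4 (-1.24), PCDHB13, PCDHGA7, PCDHGA8 and PCDHGB1. PCDHA5 is left out of this order. It was near the limit of detection in control, 0, 0.0926 and 0 CPM in WT control and 0.670, 1.14 and 0.183 in JNKKO control, so neither that fold nor its mean over treatments is given. Its log2 difference was -0.10 with dimerizer and 1.61 with dimerizer and TGF-β1. PCDHA6 was 0.349, 1.10 and 1.38 CPM in WT control, 3.21, 3.44 and 2.94 in JNKKO control and 7.87, 7.28 and 6.52 in JNKKO dimerizer with TGF-β1, the highest group. PCDHGC5 separated the genotypes with dimerizer (0.695, 0.437 and 0.559 CPM in WT and 2.76, 1.60 and 2.83 in JNKKO) but not in control, where JNKKO replicate 3 stood at 1.68 CPM and the other 2 JNKKO libraries at 0.282 and 0.353. PCDHGA7 ran from 1.23 to 2.36 CPM in WT and 0.657 to 1.43 in JNKKO, PCDHGA8 from 0.203 to 0.914 and 0.118 to 0.711, and both overlapped.

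Switching on HER2 with the dimerizer raised both C-type alpha genes in both genotypes and lowered the most abundant alternate alpha gene. In WT acini 13 of 49 members were higher and 3 lower than in control at an edgeR adjusted p under 0.05 (all genes 30.3% and 25.6%), with a median log2 difference of 0.22 beside 0.03 over all genes. In JNKKO acini 6 were higher and 2 lower (all genes 22.5% and 17.9%), with a median of -0.03 beside 0.01. The share called higher was 26.5% in WT and 12.2% in JNKKO. By cluster in WT, 5 of 13 alpha, 6 of 15 beta and 2 of 21 gamma members rose, and in JNKKO 3, 0 and 3. PCDHA4, PCDHAC1, PCDHAC2 and PCDHGA12 rose in both, 30.8% of the WT and 66.7% of the JNKKO list, shares that were not counted for all genes. The WT call of PCDHA4 and the JNKKO call of PCDHGA12 were lost under alternatives given below. The share of counts from mitochondrially encoded genes moved with these groups, from a mean of 15.2% in WT control to 9.0% in WT dimerizer and from 10.8% to 8.90% in JNKKO. In JNKKO, leaving out dimerizer replicate 1 brought the members called from 8 to 5. Without the mitochondrially encoded genes in the fit, 12 members were higher in WT and 6 in JNKKO. Of the 16896 genes in that fit, 4895 were higher in WT and 3590 in JNKKO. The 12 neuronal markers summed to 16.3 to 21.9 TPM in WT control and 18.8 to 22.6 in JNKKO control, and to 23.4 to 30.1 and 57.3 to 77 with dimerizer. Of the 5 immune markers, 1 reached 1 TPM in any library and CD3E stayed under 0.1 TPM throughout. They summed to 4.44 to 5.84 TPM in WT control and 7.0 to 7.58 in WT dimerizer. In JNKKO they summed to 4.94 to 5.91 in control and 31.5 to 35.1 with dimerizer. Of 3 fitted immune markers, 1 was called higher and 1 lower with dimerizer in JNKKO (edgeR). Of the 5 fibroblast markers, 1 reached 1 TPM. Their sums were 22 to 23.7 TPM in WT control and 13.3 to 14.1 in WT dimerizer, and 18.2 to 21.4 and 11.2 to 18.1 in JNKKO. The part of these markers in the results was not tested. In bulk RNA, fewer cells of a kind and less RNA per cell cannot be told apart, here and below.

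The C-type gene PCDHAC1 rose in both genotypes. In WT it stood at 7.54, 6.71 and 8.73 CPM in control and 19.6, 17.2 and 20.4 with dimerizer (log2 difference 1.32 ± 0.11, edgeR adjusted p = 4.6e-10, the error here and below being the SE). Its JNKKO values were 18.4, 16.1 and 15.1 CPM in control and 26.1, 32.3 and 28.9 with dimerizer (log2 difference 0.82 ± 0.09, edgeR adjusted p = 2.8e-07). All dimerizer libraries lay above the controls of their genotype, and the JNKKO controls already lay above the WT controls. PCDHAC2, whose exon is the last variable one before the shared alpha exons, was 4.72, 6.15 and 4.74 CPM in WT control and 11.9, 14.3 and 12.8 in WT dimerizer (log2 difference 1.32 ± 0.12, edgeR adjusted p = 2.1e-10). The JNKKO libraries had 10.5, 9.55 and 11.2 CPM in control and 14.6, 19.9 and 16.5 with dimerizer (log2 difference 0.71 ± 0.10, edgeR adjusted p = 3.4e-06). Here too no control library overlapped the dimerizer libraries of its genotype.

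The alternate gene PCDHA12 moved the other way. It was 19.7, 19.6 and 18.6 CPM in WT control and 14.7, 14.2 and 15.3 in WT dimerizer (log2 difference -0.39 ± 0.07, edgeR adjusted p = 4.0e-05). JNKKO libraries gave 22.8, 23.5 and 25.8 CPM in control and 20.6, 22.5 and 20.2 with dimerizer (log2 difference -0.18 ± 0.07, edgeR adjusted p = 0.037), and this call was lost without JNKKO control replicate 2 or 3 or JNKKO dimerizer replicate 1 or 3 (adjusted p up to 0.2). The make-up of alpha RNA differed between these groups. PCDHA12 held 56.4% ± 2.08 (SD, n = 3) of alpha TPM in WT control and 31% ± 1.37 in WT dimerizer, whereas PCDHAC1 held 20.5% ± 1.84 and 37.4% ± 3.25. Summed alpha expression was 37 ± 0.407 CPM (SD, n = 3) in WT control and 54.3 ± 0.632 with dimerizer. For JNKKO the sums were 62.5 ± 1.49 and 81.7 ± 7.89 CPM, with no overlap in either genotype. The scarce alternate genes PCDHA4, PCDHA5 and PCDHA10 were also called higher in WT. PCDHA4 was 0.142, 0.0968 and 0 CPM in WT control and 0.165, 0.477 and 0.363 in WT dimerizer, so few reads stand behind its call, which was lost without WT dimerizer replicate 2 (adjusted p = 0.0505) and on both TPM scales. The call of PCDHA10 was lost under 8 alternatives, among them DESeq2 (adjusted p = 0.056). PCDHA5 was 0, 0.0926 and 0 CPM in control and 0.377, 0.394 and 0.433 with dimerizer, and its call was lost on the scale of log2(TPM + 1), where the difference was 0.17 (limma adjusted p = 0.058).

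Among the beta genes, 6 of 15 rose and 1 fell in WT (all genes 30.3% and 25.6%). In JNKKO 0 rose and 1 fell (edgeR, all genes 22.5% and 17.9%), with 3 of 15 at an unadjusted p under 0.05, a count not made for all genes. PCDHB14, the most abundant beta gene, took opposite directions. It was 25.2, 24.6 and 22.6 CPM in WT control and 29.4, 28 and 27.2 in WT dimerizer (log2 difference 0.22 ± 0.06, edgeR adjusted p = 0.0019). In JNKKO it was 28.4, 30.1 and 30.1 CPM in control and 25.3, 23.1 and 25.2 with dimerizer (log2 difference -0.27 ± 0.06, edgeR adjusted p = 5.9e-04). The groups did not overlap in either genotype, but the difference between the genotypes in this response was not tested. PCDHB10 was 2.75, 2.36 and 2.37 CPM in WT control and 3.48, 4.76 and 3.59 in WT dimerizer (log2 difference 0.66 ± 0.14, edgeR adjusted p = 1.9e-04). Its JNKKO values were 5.68, 6.43 and 6.99 CPM in control and 5.89, 5.27 and 5.18 with dimerizer, with no call (log2 difference -0.23 ± 0.12, edgeR adjusted p = 0.13).

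PCDHB13 also rose in WT, from 6.86, 7.75 and 7.62 to 11, 10.4 and 9.43 CPM (log2 difference 0.47 ± 0.11, edgeR adjusted p = 4.4e-04), and was 5.39, 3.62 and 4.73 CPM in control and 3.43, 3.66 and 4.0 with dimerizer in JNKKO (log2 difference -0.31 ± 0.13, edgeR adjusted p = 0.067, and 0.0083 without JNKKO control replicate 2). PCDHB12 rose in WT from 2.33, 2.09 and 2.74 to 3.35, 3.78 and 4.40 CPM (log2 difference 0.69 ± 0.15, edgeR adjusted p = 2.2e-04). The rises of PCDHB15 (log2 difference 0.68 ± 0.20) and PCDHB9 (0.43 ± 0.18) completed the beta genes called higher in WT. The call of PCDHB9 was lost when replicate 1 or 2 of WT control or replicate 1 or 3 of WT dimerizer was left out (adjusted p up to 0.17). It was also lost with DESeq2 (adjusted p = 0.076). PCDHB2 was the beta gene that fell in WT, from 10.7, 9.26 and 9.40 to 8.31, 8.76 and 8.66 CPM (log2 difference -0.19 ± 0.08, edgeR adjusted p = 0.044). That call was lost without WT control replicate 1 or WT dimerizer replicate 1 or 3 (adjusted p up to 0.25) and on log2(TPM + 1) (-0.04, limma adjusted p = 0.72).

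Of the 21 gamma genes, 2 rose and 1, PCDHGC3, fell in WT (all genes 30.3% and 25.6%). In JNKKO 3 rose and 0 fell (all genes 22.5% and 17.9%). PCDHGC3 was 40.9, 40.3 and 45 CPM in WT control and 30.1, 29.4 and 32.1 in WT dimerizer (log2 difference -0.46 ± 0.05, edgeR adjusted p = 2.4e-08). The JNKKO libraries had 35.6, 34 and 35.6 CPM in control and 36.7, 37.5 and 39.8 with dimerizer (log2 difference 0.12 ± 0.06, edgeR adjusted p = 0.088). The 3 dimerizer libraries thus lay below the controls in WT and above them in JNKKO, where the difference missed the threshold. PCDHGA12, the last of the gamma A genes, was 1.78, 2.41 and 2.37 CPM in WT control and 3.28, 4.44 and 3.57 in WT dimerizer (log2 difference 0.78 ± 0.16, edgeR adjusted p = 9.1e-05). It was 2.97, 3.69 and 3.86 CPM in control and 5.54, 4.13 and 4.15 with dimerizer in JNKKO (log2 difference 0.38 ± 0.15, edgeR adjusted p = 0.039), a call lost without JNKKO control replicate 1 or 2 or JNKKO dimerizer replicate 1 (adjusted p up to 0.24). That call was also lost with DESeq2 (adjusted p = 0.061) and with only the 2 groups fitted (edgeR adjusted p = 0.066). On both TPM scales it was lost too (limma adjusted p = 0.066 and 0.068). At the other end of the cluster, PCDHGA1 rose in WT from 0.962, 0.961 and 0.980 to 1.81, 1.76 and 1.49 CPM (log2 difference 0.80 ± 0.23, edgeR adjusted p = 0.0046). Both other gamma genes called in JNKKO were scarce. PCDHGB7 was 0.493, 0.424 and 0.771 CPM in JNKKO control and 1.51, 0.917 and 1.0 with dimerizer (log2 difference 1.004 ± 0.32, edgeR adjusted p = 0.013), a call lost without JNKKO control replicate 1 or 2 or JNKKO dimerizer replicate 1 (adjusted p up to 0.081) and on both TPM scales. PCDHGC5 was called higher in JNKKO (log2 difference 1.65 ± 0.45, edgeR adjusted p = 0.0084) although its groups overlapped, and with only the 2 groups in the fit its adjusted p was 0.14.

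**Figure D3:**
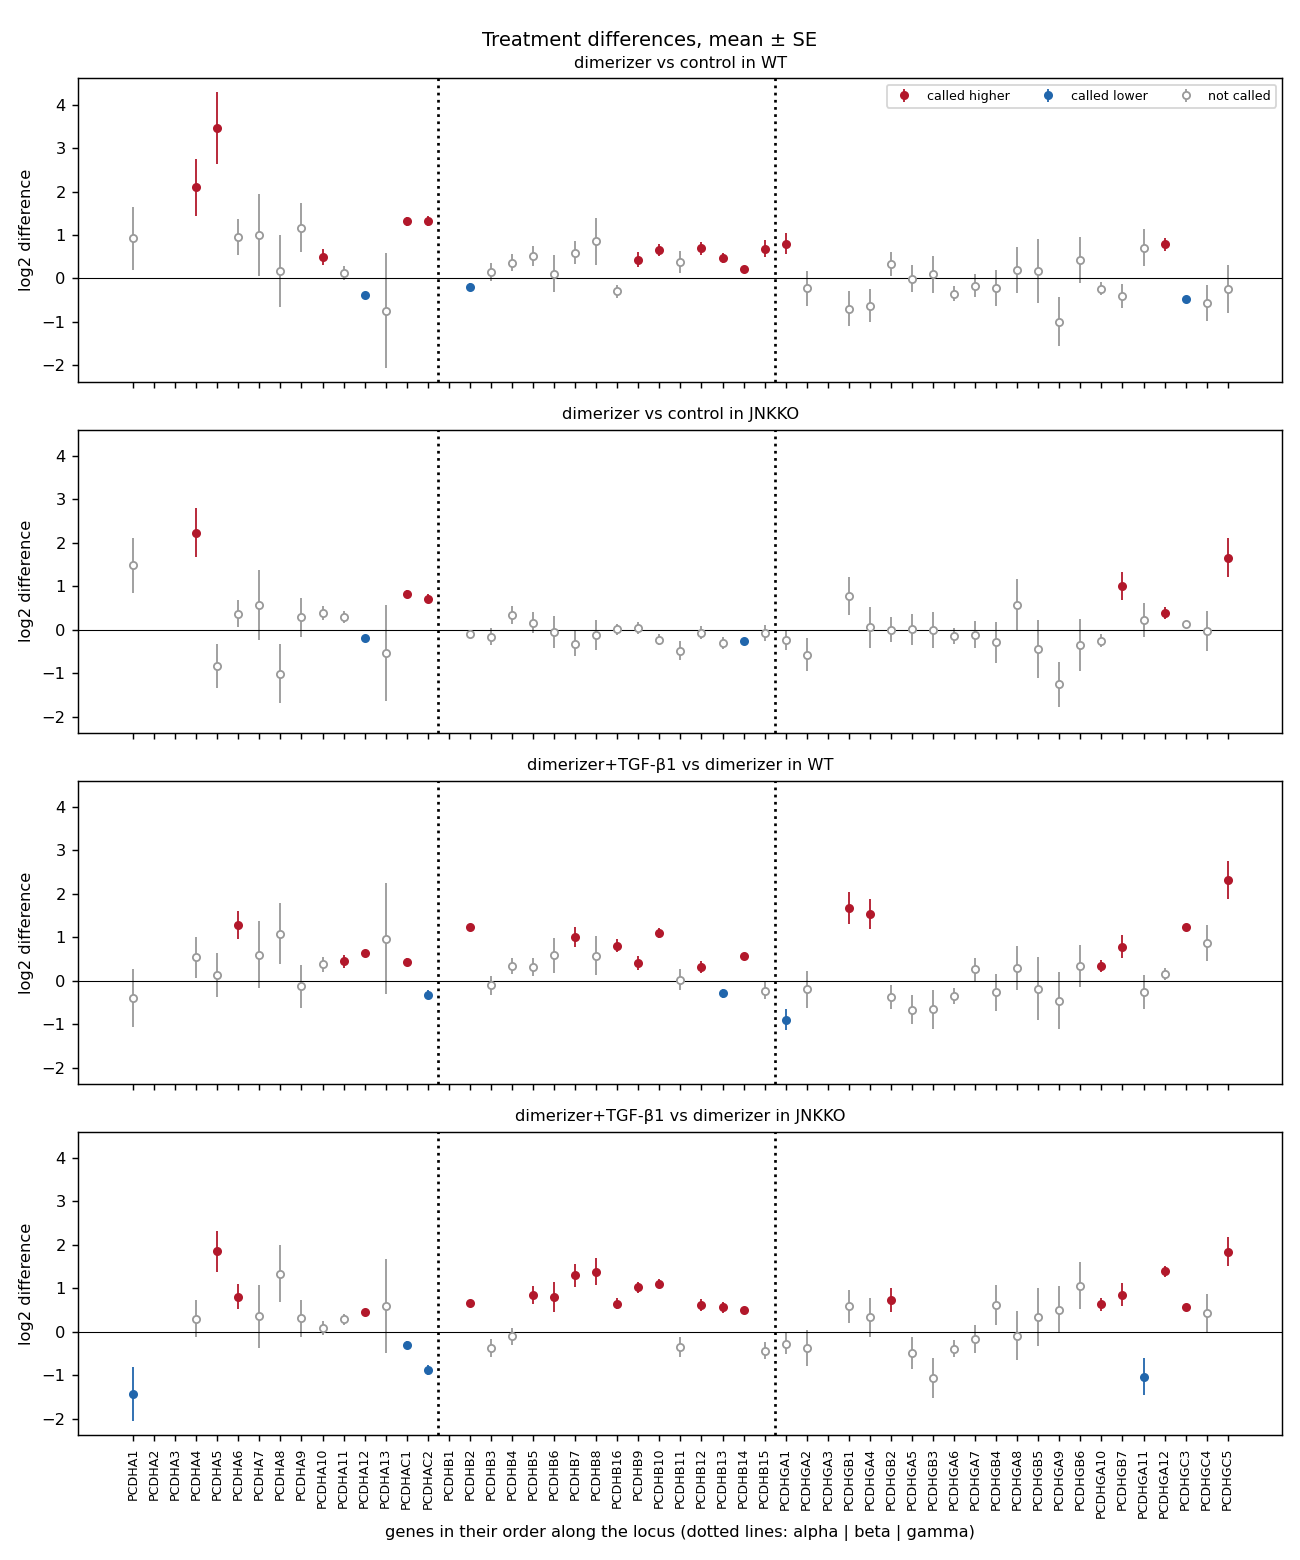
Log2 difference ± SE from the edgeR fit for the 49 fitted protocadherins in their order along the locus, 1 panel for each treatment comparison. Red and blue mark members called higher or lower at an adjusted p under 0.05 and open grey points those not called. PCDHAC1 and PCDHAC2 are red in both dimerizer panels, and TGF-β1 gives a block of red beta points in JNKKO.

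Adding TGF-β1 to the dimerizer raised 7 of 15 beta genes in WT and 11 in JNKKO. In both genotypes it raised the C-type gamma genes PCDHGC3 and PCDHGC5 and the alternate alpha gene PCDHA12, and lowered the C-type alpha gene PCDHAC2. The WT call of PCDHAC2 was lost under alternatives given below. In WT 17 of 49 were higher and 3 lower than with dimerizer alone (all genes 33.4% and 31.8%), and in JNKKO 20 and 4 (all genes 30.5% and 30.3%). The median log2 difference was 0.34 in WT and 0.51 in JNKKO, beside 0.00 and -0.01 over all genes. The members called made up 34.7% higher and 6.12% lower in WT and 40.8% and 8.16% in JNKKO. Most members are scarce, and whether their shares differ from those of all genes was not tested. Without WT replicate 3, the library with the contradicting tag, 19 members were called in WT in place of 20. Of the members that rose, 13 were shared, 76.5% of the WT and 65% of the JNKKO list. The shared part was not counted for all genes, so these shares are not read as particular to the members. By cluster, 4 of 13 alpha, 7 of 15 beta and 6 of 21 gamma members rose in WT, and 3, 11 and 6 in JNKKO. Summed gamma expression went from 53.9, 54.6 and 55 CPM to 98.5, 101 and 105 in WT and from 62.1, 58.7 and 66.3 to 102, 95.6 and 95.1 in JNKKO. Summed beta expression went from 68.4 ± 0.964 (SD, n = 3) to 101 ± 2.60 in WT and from 67.7 ± 3.51 to 103 ± 1.02 in JNKKO. Both sums were higher in every library with TGF-β1, whereas summed alpha expression was 81.7 ± 7.89 and 82.7 ± 1.97 CPM in JNKKO, where the groups overlapped, and 54.3 ± 0.632 and 71.1 ± 1.68 in WT.

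On the TPM scale, sums after TGF-β1 were larger, and the median of all genes moved by 0.15 in WT and 0.22 in JNKKO on log2(TPM + 0.1). That scale called 19 of 49 members higher and 1 lower in WT and 20 and 1 in JNKKO (limma). Of all 16911 genes it called 7078 higher and 3682 lower in WT and 8023 and 2689 in JNKKO. Summed levels of markers of other cell types differed with TGF-β1 too. The 12 neuronal markers, of which 3 reached 1 TPM, summed to 23.4 to 30.1 TPM in WT dimerizer and 85 to 111 with TGF-β1, and 57.3 to 77 and 148 to 159 in JNKKO. Among them the tubulin gene TUBB3 rose in both genotypes (log2 differences 1.68 and 0.89). Of the 5 fibroblast markers 1 reached 1 TPM, and PDGFRA stayed under 0.1 TPM in every library. Their sums with dimerizer and with TGF-β1 were 13.3 to 14.1 and 76.8 to 112 TPM in WT. In JNKKO they were 11.2 to 18.1 and 47.1 to 61. Immune markers, of which 1 of 5 reached 1 TPM, summed to 7.0 to 7.58 TPM and 9.50 to 15 in WT. In JNKKO they summed to 31.5 to 35.1 and 35.8 to 40.3. Of 3 fitted immune markers, 1 was called higher in WT and 0 in JNKKO (edgeR). The mitochondrially encoded share of counts had a mean of 9.0% with dimerizer and 9.19% with TGF-β1 in WT, and 8.90% and 5.38% in JNKKO. Without those genes in the fit, 16 members were higher with TGF-β1 in WT and 20 in JNKKO. Of the 16896 genes in that fit, 5559 were higher in WT and 5323 in JNKKO. The part of the markers in the protocadherin changes was not tested.

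PCDHGC3, the member with the highest level, was 30.1, 29.4 and 32.1 CPM in WT dimerizer and 68.8, 71 and 75 with TGF-β1 (log2 difference 1.23 ± 0.05, edgeR adjusted p = 2.8e-18). JNKKO libraries gave 36.7, 37.5 and 39.8 CPM with dimerizer alone and 60.3, 54.5 and 55.3 with TGF-β1 (log2 difference 0.58 ± 0.05, edgeR adjusted p = 1.2e-10). Every TGF-β1 library lay above every library of the same genotype without it. PCDHGC5, whose exon is the last variable one of the gamma cluster, was 0.695, 0.437 and 0.559 CPM in WT dimerizer and 2.52, 3.06 and 2.87 with TGF-β1 (log2 difference 2.31 ± 0.44, edgeR adjusted p = 2.8e-04). In JNKKO it was 2.76, 1.60 and 2.83 CPM with dimerizer alone and 9.29, 8.09 and 8.34 with TGF-β1 (log2 difference 1.84 ± 0.33, edgeR adjusted p = 2.0e-04). No groups overlapped, and the JNKKO libraries with TGF-β1 stood above all others. PCDHGC4, which lies between the pair, was 0.199, 0.525 and 0.337 CPM in WT dimerizer and 0.844, 0.630 and 0.494 with TGF-β1 and was not called (log2 difference 0.87 ± 0.41, edgeR adjusted p = 0.064). It was called on both TPM scales (limma adjusted p = 0.037 and 0.034) and without WT dimerizer replicate 2 or WT TGF-β1 replicate 3 (edgeR adjusted p = 0.025 and 0.046).

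PCDHGA12 was called higher with TGF-β1 in JNKKO and was not called in WT, and the difference between the genotypes was not tested. It was 5.54, 4.13 and 4.15 CPM in JNKKO dimerizer and 12.5, 11.4 and 12.1 with TGF-β1 (log2 difference 1.39 ± 0.13, edgeR adjusted p = 1.2e-10), and 3.28, 4.44 and 3.57 CPM with dimerizer alone and 4.55, 4.25 and 3.84 with TGF-β1 in WT (log2 difference 0.16 ± 0.14, edgeR adjusted p = 0.32). On both TPM scales it was called higher in WT too (log2 difference 0.46, limma adjusted p = 0.011 on log2(TPM + 0.1)). PCDHGA10 rose in JNKKO (log2 difference 0.63 ± 0.15, edgeR adjusted p = 6.3e-04) and in WT (log2 difference 0.34 ± 0.14, edgeR adjusted p = 0.038), where the call was lost without replicate 1 of either group (adjusted p up to 0.24). Genes at the start of the gamma cluster moved in both directions in WT. PCDHGB1 was 0.779, 0.613 and 0.428 CPM in WT dimerizer and 1.32, 1.80 and 2.61 with TGF-β1 (log2 difference 1.67 ± 0.37, edgeR adjusted p = 3.5e-04). PCDHGA4 was 0.641, 1.36 and 0.477 CPM with dimerizer alone and 2.35, 2.17 and 2.67 with TGF-β1 (log2 difference 1.54 ± 0.35, edgeR adjusted p = 6.2e-04). PCDHGA1 fell from 1.81, 1.76 and 1.49 to 0.557, 1.23 and 0.948 CPM (log2 difference -0.90 ± 0.24, edgeR adjusted p = 0.0014). None of these 3 was called in JNKKO, where PCDHGA4 was 0.299, 0.287 and 0.998 CPM with dimerizer and 0.518, 0.760 and 0.769 with TGF-β1. Without JNKKO dimerizer replicate 3, however, PCDHGA4 was called higher there (log2 difference 1.21, edgeR adjusted p = 0.028), and so was PCDHGB1 on both TPM scales (0.82, limma adjusted p = 0.015 on log2(TPM + 0.1)). PCDHGB2 rose in JNKKO (log2 difference 0.73 ± 0.28, edgeR adjusted p = 0.023), a call lost without JNKKO dimerizer replicate 2 or JNKKO TGF-β1 replicate 3 (adjusted p up to 0.12). PCDHGB7 rose in WT (log2 difference 0.78 ± 0.26, edgeR adjusted p = 0.011) and in JNKKO (log2 difference 0.85 ± 0.27, edgeR adjusted p = 0.0072), and the WT call was lost without replicate 3 of either group (adjusted p up to 0.15). PCDHGA6, with a mean of 0.557 TPM, was called in no treatment comparison by the fit of all libraries. It was called lower with dimerizer in WT when only the 2 groups were fitted (-0.37, edgeR adjusted p = 0.041), and lower with TGF-β1 in JNKKO without replicate 2 of JNKKO dimerizer (-0.59, edgeR adjusted p = 0.0087) or of JNKKO TGF-β1 (adjusted p = 0.042).

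With TGF-β1 in JNKKO, 11 of 15 beta genes rose and 0 fell (edgeR, all genes 30.5% and 30.3%). At an unadjusted p under 0.05 there were 12 of 15, a count not made for all genes. The median beta log2 difference was 0.65. In WT 7 of 15 rose, 1 fell and the other 7 were not called (all genes 33.4% and 31.8%), with a median of 0.40. PCDHB2, near the start of the cluster, was 8.31, 8.76 and 8.66 CPM in WT dimerizer and 20.5, 19.6 and 20.2 with TGF-β1 (log2 difference 1.23 ± 0.07, edgeR adjusted p = 1.1e-14). Its JNKKO values were 8.84, 8.22 and 9.79 CPM with dimerizer alone and 14.9, 13.8 and 13.5 with TGF-β1 (log2 difference 0.66 ± 0.08, edgeR adjusted p = 2.8e-08). The groups did not overlap in either genotype. PCDHB10 was 3.48, 4.76 and 3.59 CPM in WT dimerizer and 7.71, 8.61 and 9.20 with TGF-β1 (log2 difference 1.10 ± 0.12, edgeR adjusted p = 1.9e-09), and 5.89, 5.27 and 5.18 CPM with dimerizer alone and 12.5, 10.8 and 11.9 with TGF-β1 in JNKKO (log2 difference 1.11 ± 0.11, edgeR adjusted p = 9.4e-10). PCDHB14 was 29.4, 28 and 27.2 CPM in WT dimerizer and 41.4, 44.7 and 39.3 with TGF-β1 (log2 difference 0.57 ± 0.06, edgeR adjusted p = 4.4e-10), and 25.3, 23.1 and 25.2 CPM with dimerizer alone and 33.1, 36.1 and 35.4 with TGF-β1 in JNKKO (log2 difference 0.51 ± 0.06, edgeR adjusted p = 1.3e-08). Neither gene had overlapping groups in either genotype.

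The 3 neighbouring beta genes that separated the genotypes by CPM also rose with TGF-β1 in JNKKO. PCDHB8 was 0.462, 0.395 and 0.585 CPM in JNKKO dimerizer and 1.18, 1.28 and 1.30 with TGF-β1 (log2 difference 1.38 ± 0.31, edgeR adjusted p = 3.1e-04). PCDHB9 was 5.95, 4.38 and 4.98 CPM with dimerizer alone and 10.6, 10.9 and 9.44 with TGF-β1 (log2 difference 1.03 ± 0.12, edgeR adjusted p = 2.7e-08), and PCDHB16 was 5.21, 5.09 and 5.30 CPM with dimerizer alone and 9.40, 7.03 and 8.04 with TGF-β1 (log2 difference 0.65 ± 0.12, edgeR adjusted p = 4.7e-05). In WT, PCDHB16 rose from 1.62, 2.38 and 2.32 to 3.54, 4.13 and 3.45 CPM (log2 difference 0.80 ± 0.15, edgeR adjusted p = 2.4e-05), and PCDHB9 from 1.88, 1.55 and 1.96 to 2.18, 2.22 and 2.76 (log2 difference 0.40 ± 0.16, edgeR adjusted p = 0.031). The WT call of PCDHB9 was lost without WT dimerizer replicate 2 or WT TGF-β1 replicate 3 (adjusted p up to 0.18). PCDHB7 rose in both genotypes, from 1.10, 0.787 and 0.927 to 2.05, 2.12 and 1.48 CPM in WT (log2 difference 1.01 ± 0.23, edgeR adjusted p = 3.8e-04) and from 0.555, 0.479 and 0.772 to 1.09, 1.81 and 1.58 in JNKKO (log2 difference 1.30 ± 0.26, edgeR adjusted p = 9.1e-05). PCDHB12 rose in JNKKO (log2 difference 0.61 ± 0.14, edgeR adjusted p = 3.5e-04) and in WT (log2 difference 0.31 ± 0.13, edgeR adjusted p = 0.045), where the call was lost without WT dimerizer replicate 1 or 2 or WT TGF-β1 replicate 2 or 3 (adjusted p up to 0.19).

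PCDHB13 and PCDHAC1 went opposite ways in the 2 genotypes, a difference that was not tested. PCDHB13 was 11, 10.4 and 9.43 CPM in WT dimerizer and 8.01, 8.39 and 8.81 with TGF-β1 (log2 difference -0.29 ± 0.11, edgeR adjusted p = 0.018). The JNKKO libraries had 3.43, 3.66 and 4.0 CPM with dimerizer alone and 5.77, 4.78 and 5.94 with TGF-β1 (log2 difference 0.57 ± 0.13, edgeR adjusted p = 3.8e-04). The WT fall was lost without replicate 1 of either WT group (adjusted p up to 0.086) and on log2(TPM + 1) (-0.10, limma adjusted p = 0.36). PCDHAC1 was 19.6, 17.2 and 20.4 CPM in WT dimerizer and 24.3, 27.2 and 25.9 with TGF-β1 (log2 difference 0.44 ± 0.09, edgeR adjusted p = 2.1e-04). JNKKO libraries gave 26.1, 32.3 and 28.9 CPM with dimerizer alone and 25.7, 21.6 and 23.9 with TGF-β1 (log2 difference -0.30 ± 0.09, edgeR adjusted p = 0.0062). Its fall in JNKKO was lost on log2(TPM + 1), where the difference was -0.07 (limma adjusted p = 0.55). PCDHAC2, the other C-type alpha gene, fell in both genotypes. It was 14.6, 19.9 and 16.5 CPM in JNKKO dimerizer and 10.2, 9.19 and 8.57 with TGF-β1 (log2 difference -0.87 ± 0.11, edgeR adjusted p = 4.9e-08), and 11.9, 14.3 and 12.8 CPM with dimerizer alone and 11, 10.02 and 10.1 with TGF-β1 in WT (log2 difference -0.32 ± 0.10, edgeR adjusted p = 0.0082). The WT call was lost without WT dimerizer replicate 2 (adjusted p = 0.054) and on log2(TPM + 1) (-0.10, limma adjusted p = 0.34).

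The abundant alternate alpha gene rose in both genotypes. PCDHA12 was 14.7, 14.2 and 15.3 CPM in WT dimerizer and 24.6, 23.5 and 20.4 with TGF-β1 (log2 difference 0.63 ± 0.07, edgeR adjusted p = 5.8e-09). In JNKKO it was 20.6, 22.5 and 20.2 CPM with dimerizer alone and 27.6, 31.2 and 28.8 with TGF-β1 (log2 difference 0.47 ± 0.07, edgeR adjusted p = 8.8e-07). No groups overlapped. PCDHA6 was 1.69, 2.76 and 0.944 CPM in WT dimerizer and 4.88, 3.45 and 4.83 with TGF-β1 (log2 difference 1.28 ± 0.33, edgeR adjusted p = 0.0031). Its JNKKO values were 3.25, 4.96 and 4.08 CPM with dimerizer alone and 7.87, 7.28 and 6.52 with TGF-β1 (log2 difference 0.81 ± 0.29, edgeR adjusted p = 0.027), a call lost without JNKKO dimerizer replicate 1 or 3 or JNKKO TGF-β1 replicate 1 or 2 (adjusted p up to 0.087). PCDHA11 rose in WT (log2 difference 0.45 ± 0.15, edgeR adjusted p = 0.012). PCDHA5 rose in JNKKO from 0.312, 0.167 and 0.656 to 1.46, 1.15 and 1.43 CPM (log2 difference 1.85 ± 0.47, edgeR adjusted p = 0.0014). PCDHA1 and PCDHGA11, both scarce, were called lower in JNKKO (log2 differences -1.43 ± 0.62 and -1.03 ± 0.43). Neither was called by DESeq2 (adjusted p = 0.097 and 0.068) or on a TPM scale, and without JNKKO TGF-β1 replicate 3 the members called lower there numbered 2 in place of 4.

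**Figure D4:**
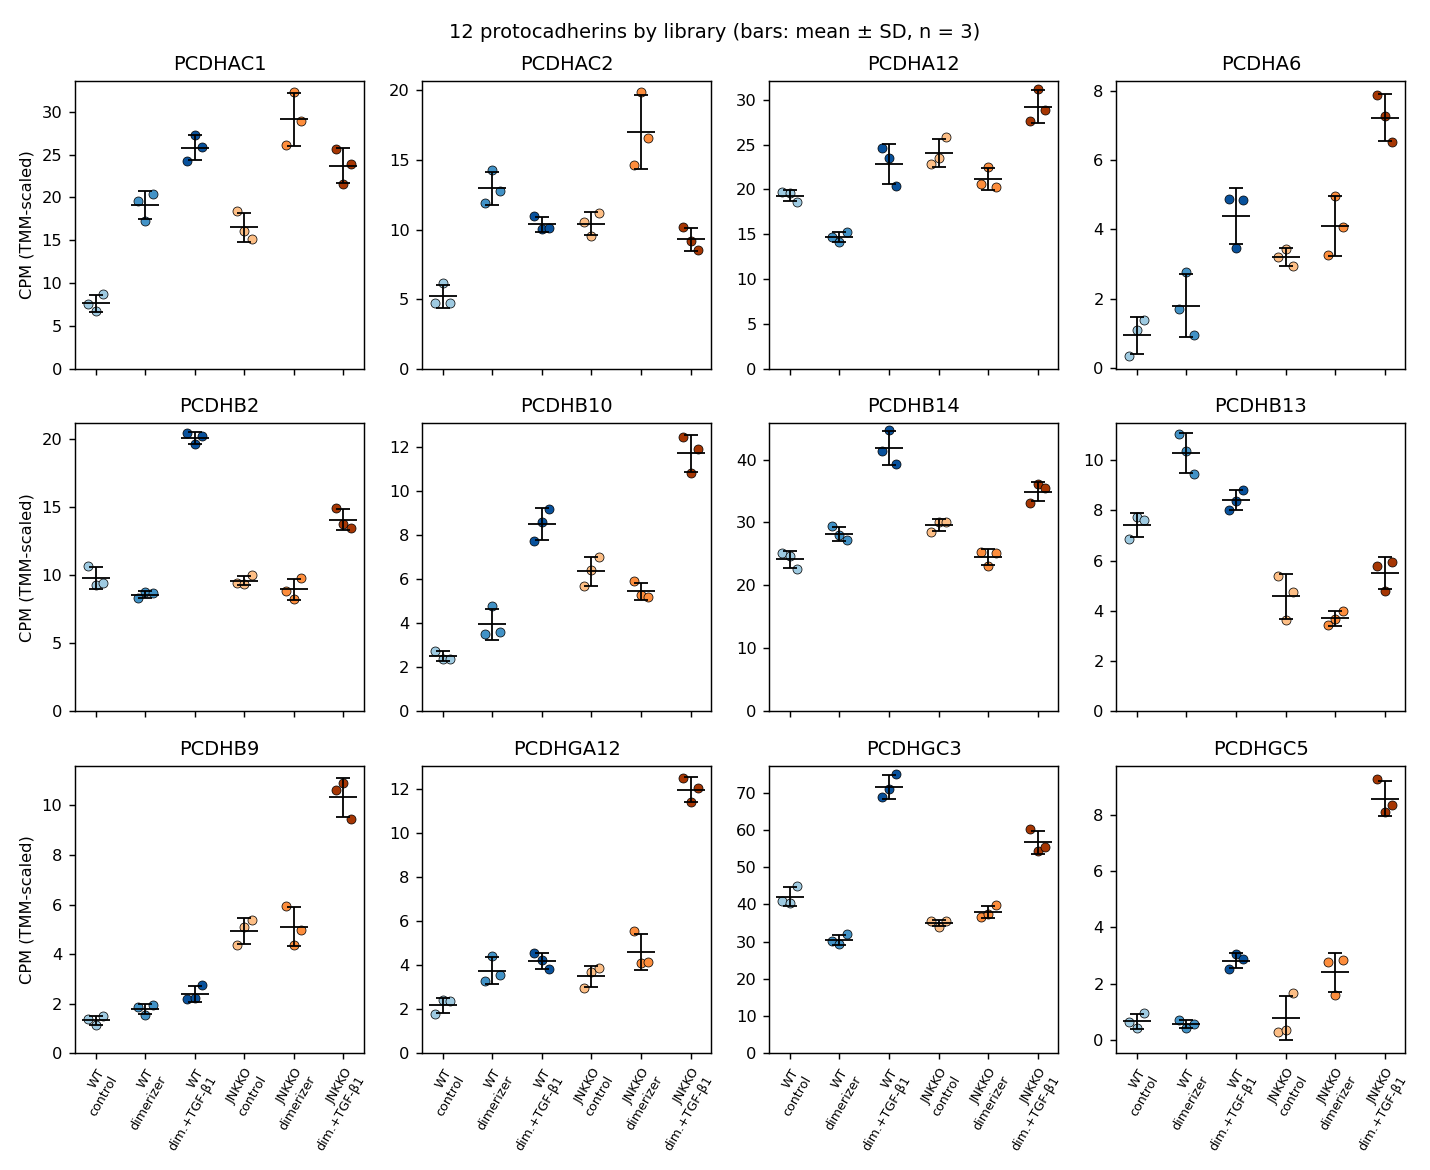
TMM-scaled CPM of 12 protocadherins in each of the 18 libraries (points) by group, with mean and SD of 3 libraries (bars), each panel on its own linear axis. PCDHB9 and PCDHB13 are separated between WT and JNKKO in every treatment, PCDHGA12 and PCDHGC5 are highest in JNKKO with TGF-β1, and PCDHGC3 dips with dimerizer in WT and stands slightly higher with it in JNKKO.

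The deposited counts and TPM together hold a further measure, the mean length of the transcripts that a gene's reads were assigned to, weighted by abundance. Over 1485 to 1716 genes with a single annotated transcript this length was recovered with a median error of 0.0970% to 0.136% per library. PCDHB10, a gene of 1 transcript of 3290 nt, gave 3284 to 3306 nt. PCDHA11 has a transcript of 6115 nt that holds the shared 3′ exons and a single-exon transcript of 3418 nt that does not. In 15 libraries its weighted length was 3409 to 3553 nt, close to that of the single-exon form. In JNKKO dimerizer with TGF-β1 it was 4746, 5063 and 4421 nt. PCDHA12 (5233 nt with and 2588 nt without the shared exons) gave 4697, 4775 and 4412 nt in that group and 3995, 4236 and 4098 in JNKKO dimerizer. PCDHGC3, with transcripts of 4725, 2849, 2346 and 731 nt, went the other way, 3517, 3349 and 3403 nt and 3825, 3819 and 3757.

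In JNKKO the mean weighted length was 4743 ± 321 nt (SD, n = 3) with TGF-β1 and 3469 ± 72.7 with dimerizer alone for PCDHA11, and 4628 ± 191 and 4110 ± 121 for PCDHA12. For PCDHGC3 it was 3423 ± 85.7 and 3800 ± 37.5. The groups did not overlap for any of these 3, and the exact two-sided permutation p was 0.1 each time, the smallest that 3 against 3 allows, so no such difference could reach 0.05. In WT the same comparison gave groups that overlapped for all 3, with exact permutation p of 0.4, 0.3 and 0.9. These 3 were picked after their values were seen, out of 13 members with at least 0.5 TPM in every library. Other members also gave an exact permutation p of 0.1. Among them was PCDHB3, a gene with a single transcript of 3355 nt, with means of 3369 nt in JNKKO control and 3353 in JNKKO dimerizer. The mean length of PCDHAC2 went with dimerizer from 5405 to 5975 nt in WT and from 5491 to 5932 in JNKKO. Of the beta genes, which lack shared exons, PCDHB12 went with TGF-β1 from 3184 to 2980 nt in WT and from 3468 to 3098 in JNKKO. PCDHB14 went from 3652 to 3417 nt and from 3616 to 3496. PCDHB13, like PCDHB10 a gene with a single transcript, of 5061 nt, gave 5046 to 5080 nt. For alpha and gamma genes the measure rests on how reads in the shared 3′ exons, 54.5% of the full-length transcript in the median alpha gene and 47.3% in the median gamma gene, were divided among members. Its part in the counts of alpha and gamma genes was not tested.

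**Figure D5:**
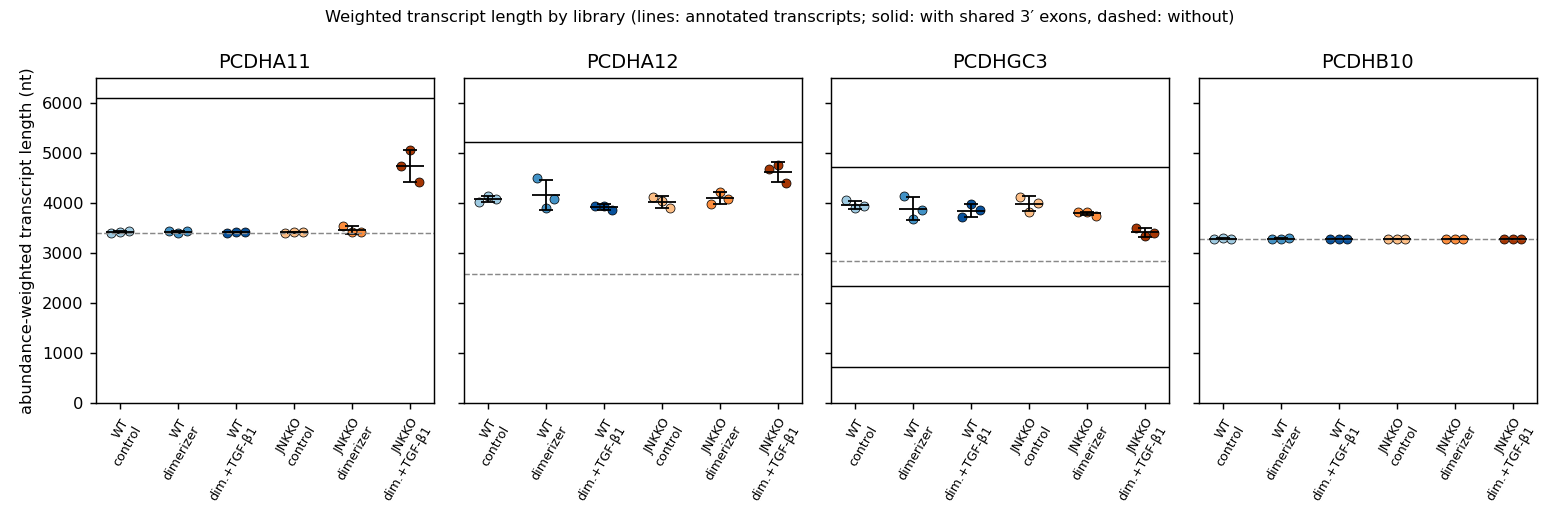
Abundance-weighted transcript length in nucleotides of PCDHA11, PCDHA12, PCDHGC3 and PCDHB10 in each library (points), with mean and SD of 3 libraries (bars) and horizontal lines at the annotated transcript lengths. PCDHA11 leaves the line of its single-exon transcript in the 3 JNKKO dimerizer with TGF-β1 libraries, and PCDHB10, with 1 transcript, does not move.

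Among genes around and between the clusters, TAF7, a subunit of the general transcription factor TFIID that lies between the beta and gamma clusters, was 119.7 to 149 CPM in WT and 76.3 to 91.9 in JNKKO, lower in all 9 libraries. Of 34 fitted protein-coding genes within 1 Mb, it alone had 9 libraries of a genotype apart from the other 9, 2.94% beside 0.786% above and 0.798% below among all genes. In single treatments, 6 neighbours differed between genotypes by over 1 log2 in at least 1 treatment (NRG2, CYSTM1, HBEGF, CD14, PCDH1 and SPRY4). That share was not counted for all genes, so it is not read as particular to the region. SPRY4 stood at 0.88, 2.21 and 1.57 in control, dimerizer and dimerizer with TGF-β1, NRG2 at 1.84, 0.33 and 1.77, and CD14 at -1.08 in control. HARS, DIAPH1 and HDAC3, near the ends of the locus, had genotype differences between -0.11 and 0.42 log2. Of the 34 neighbours, 13 were called higher and 17 lower with dimerizer in WT (all genes 30.3% and 25.6%) and 17 and 4 in JNKKO (all genes 22.5% and 17.9%). With TGF-β1, 18 were higher and 11 lower in WT (all genes 33.4% and 31.8%) and 13 and 12 in JNKKO (all genes 30.5% and 30.3%). Outside the clusters, 6 of 11 other protocadherins were fitted, too few to set against those shares: 2 rose and 3 fell with dimerizer in WT, 1 and 1 in JNKKO, and 3 and 2 with TGF-β1 in each genotype. PCDH1, a neighbour within 1 Mb, rose with TGF-β1 from 2.29, 1.81 and 2.56 to 31.1, 38.9 and 37.8 CPM in WT (log2 difference 4.01 ± 0.11, edgeR adjusted p = 1.3e-22) and from 5.38, 5.39 and 5.76 to 42.4, 38.2 and 43.9 in JNKKO (log2 difference 2.91 ± 0.09, edgeR adjusted p = 1.6e-20). PCDH9 rose too (log2 differences 1.51 ± 0.07 and 1.67 ± 0.08), while PCDH7 fell in JNKKO (log2 difference -1.81 ± 0.15, edgeR adjusted p = 2.8e-09) and in WT (log2 difference -0.32 ± 0.11, edgeR adjusted p = 0.017).

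Genes known to act on the clusters are given as lists, with the shares of all genes from the same comparisons. Of 24 regulators (CTCF, cohesin and its loaders, DNA methylation and silencing factors), 8 rose and 7 fell with dimerizer in WT (all genes 30.3% and 25.6%), and 1 rose and 16 fell in JNKKO (all genes 22.5% and 17.9%). With TGF-β1, 8 rose and 10 fell in WT (all genes 33.4% and 31.8%) and 8 and 6 in JNKKO (all genes 30.5% and 30.3%). No treatment moved CTCF by a log2 difference beyond 0.24. SMCHD1, a silencing factor of the clusters, fell with TGF-β1 from 78.9, 78.3 and 75.6 to 45.1, 45.5 and 44 CPM in WT (log2 difference -0.79 ± 0.05, edgeR adjusted p = 1.4e-14) and from 69.4, 81.4 and 72.4 to 46.9, 49.6 and 47.8 in JNKKO (log2 difference -0.63 ± 0.05, edgeR adjusted p = 3.5e-12).

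Of 22 fitted partners that cleave the proteins or bind their cytoplasmic part, 13 rose and 2 fell with TGF-β1 in WT (all genes 33.4% and 31.8%) and 12 and 7 in JNKKO (all genes 30.5% and 30.3%). With dimerizer 8 rose and 7 fell in WT (all genes 30.3% and 25.6%) and 9 and 3 in JNKKO (all genes 22.5% and 17.9%). The kinases PTK2 and PTK2B, which the cytoplasmic parts bind, rose with TGF-β1 by log2 differences of 1.38 ± 0.03 and 1.32 ± 0.05 in WT and 0.47 ± 0.03 and 0.94 ± 0.05 in JNKKO, and the kinase FYN by 2.16 ± 0.14 and 2.01 ± 0.11. CYFIP2, of the WAVE complex that nucleates actin, and PSEN2, of the gamma-secretase, fell in both genotypes, with log2 differences of -0.31 ± 0.07 and -0.12 ± 0.05 in WT and -0.37 ± 0.08 and -0.17 ± 0.05 in JNKKO. The other 5 that fell in JNKKO (ABI1, ADAM17, APH1A, AXIN1 and WASF2) had log2 differences of -0.31 to -0.10.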

How the data were processed

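RNA-seq tables of 18 libraries were used. The authors deposited expected counts and TPM per gene, for which the submitters' processing notes list cutadapt, RSEM and hg38. No aligner, annotation or strand setting is stated there. The tables hold a row for 42141 genes, of which 42125 matched GENCODE 29, and totals of 24243537 to 34499651 expected counts per library, a depth that leaves members under 1 CPM with few reads. Expected counts were rounded and tested with edgeR 4.0.16 (quasi-likelihood F test, robust, TMM factors 0.962 to 1.04, filterByExpr, all 18 libraries in 1 fit of 16911 genes, Benjamini-Hochberg threshold 0.05). CPM were TMM-scaled from unrounded counts. The scripts were tested on simulated data. Alternatives were DESeq2 1.42.0, limma 3.58.1 on log2(TPM + 1) and log2(TPM + 0.1), no filter, fits of 2 groups, a replicate block and leaving out each library. A fit without mitochondrially encoded genes and leave-one-out values of transcript length were added after seeing the data. Replicate numbers did not pair the samples.

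The members and lists were chosen with earlier results of these data known. Members given with values in every library were the 3 highest by TPM in each family, in each treatment comparison up to 5 called members with the largest rises and falls without overlap and at least 1 CPM, and the 5 largest and 5 smallest mean differences between genotypes. PCDHA1, PCDHA4, PCDHA10, PCDHA11, PCDHB15, PCDHB16 and PCDHGA11 are outside this rule and were named after their values were seen, and their alternatives were added then. Promoter sequences are from RefSeq (GRCh38.p14). Weighted transcript length was the ratio of count to TPM, scaled per library on genes with a single transcript.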

Additional observations from a re-analysis of the deposited data

Results flagged for a closer look

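In the cases below, by CPM, the 3 libraries with a treatment lay wholly above the 3 without it in 1 genotype and wholly below in the other. How often this happens among all genes was not counted, so it is not read as particular to the members. None of these differences between the genotypes was tested. With dimerizer against control, the log2 difference of PCDHB14 was 0.22 in WT and -0.27 in JNKKO. For PCDHGC3 it was -0.46 in WT and 0.12 in JNKKO, the latter not past the threshold. Summed beta expression, which includes PCDHB14, showed the same contrast, with 0.26 in WT and -0.17 in JNKKO. With TGF-β1 against dimerizer alone, PCDHAC1 differed by 0.44 in WT and -0.30 in JNKKO, and PCDHB13 by -0.29 in WT and 0.57 in JNKKO. In TPM the opposite directions held for PCDHB14, PCDHGC3 and summed beta expression, but not for the other 2. PCDHAC1 in JNKKO spanned 7.12 to 9.5 TPM with dimerizer and 6.96 to 8.6 with TGF-β1, and PCDHB13 in WT 2.58 to 3 and 2.45 to 2.68 TPM, so these groups overlapped.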

How the results depend on the processing

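Of 66 treatment calls of the 33 fitted members named in the text, 46 held under every alternative run and 20 were lost under at least 1, 17 of them when 1 library was left out and 14 on a TPM scale. In 16 treatment comparisons of 13 of these members, at least 1 alternative made a call that the fit of all libraries did not. DESeq2's size factors and the replicate block lost none of the calls, and the block added PCDHB15 with TGF-β1 in JNKKO (-0.44, adjusted p = 0.043). The replicate numbers do not pair the samples (correlations of same-numbered deviations -0.0585 to 0.0529). With the replicate block, 16 and 9 members were called with dimerizer in WT and JNKKO, and 20 and 25 with TGF-β1. Of all 16911 genes, the block called 5154 higher and 4315 lower with dimerizer in WT and 3813 and 3011 in JNKKO. With TGF-β1 it called 5660 and 5391 in WT and 5143 and 5117 in JNKKO.

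On log2(TPM + 1) and log2(TPM + 0.1) 1 member was called lower with TGF-β1 in WT and 1 in JNKKO. All genes also split differently there: with TGF-β1 on log2(TPM + 1), 7150 rose and 3664 fell in WT and 8046 and 2631 in JNKKO, with dimerizer 6250 and 2814 in WT and 2815 and 3219 in JNKKO, and between genotypes 1773 and 5425 with dimerizer and 3486 and 5004 with dimerizer and TGF-β1. Summed TPM gave log2 differences with TGF-β1 of 0.62, 0.79 and 1.06 for alpha, beta and gamma in WT and 0.21, 0.88 and 0.96 in JNKKO. With dimerizer in WT it gave 0.35 for beta and -0.18 for gamma. Between genotypes it gave -0.14 for beta and 0.086 for gamma with dimerizer, and 0.043 for alpha and -0.050 for beta with dimerizer and TGF-β1. Plain totals gave 0.62 for alpha and 0.32 for beta with dimerizer in WT, and -0.12 for beta and 0.092 for gamma between genotypes with dimerizer. The cause was not tested.

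Leaving out 1 library gave 5 to 11 members called with dimerizer in JNKKO, 1 to 4 of them lower, and 2 to 5 lower with TGF-β1 in JNKKO. Between genotypes, members called lower in JNKKO (edgeR adjusted p under 0.05) numbered 3 to 6 in control and 1 to 5 with dimerizer. In control there were 3 without WT control replicate 1 or JNKKO control replicate 2. With dimerizer there was 1 without JNKKO dimerizer replicate 2, and there were 5 without replicate 3. Of all 16911 genes, the same fits called 3592 and 3552 lower in control and 2912 and 2669 with dimerizer. The set was selected on these genotype differences, so the member counts only describe how the fit depends on single libraries. They are not read as a test. Without JNKKO control replicate 3, PCDHGC5 in control was -1.05 in JNKKO against WT in place of 0.19, and leaving out each library gave -1.05 to 0.59. The weighted length difference with TGF-β1 in JNKKO was 1115 to 1436 nt for PCDHA11, 445 to 626 for PCDHA12 and -424 to -340 for PCDHGC3. Depth limits the members under 1 CPM, and reads shared between members limit alpha, beta and gamma values.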
